A study of Gallus gallus with 16 samples.

Results

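The genes described here are the 150 whose share of the RNA varied least across 16 libraries. The libraries came from sorted chick (Gallus gallus) cells, taken as neural crest. In 14 of them the cells were given CRISPR/Cas9 guides against 1 transcription factor gene or, in the double group, against tfap2b and sox10. The other 2 were controls with Cas9 and no guide. The 150 genes were chosen on their CPM. CPM is the count of a gene divided by the column total of its library and scaled up to the same total in every library. Of 24881 genes in the table, 17717 lay on numbered chromosomes, and 3623 of these had at least 20 CPM in every library. After the 100 genes of highest mean CPM in the control were left out, of which 94 were among these, 3529 genes were eligible. The 150 with the lowest standard deviation (SD) of log2 CPM over the libraries are called the steady genes. Because their spread chose them, their small spread and small differences between groups are given as a description and not as a finding.

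Genes whose transcripts keep a near constant share across conditions are what quantitative PCR and RNA sequencing use as references. Many such genes serve tasks common to all cells, such as protein synthesis and breakdown, RNA processing and transport within the cell. Neural crest cells leave the dorsal neural tube, migrate and give rise to neurons, glia, pigment cells and mesenchyme, and SOX10, TFAP2B, MSX1 and SOX3 are transcription factors active in the neural crest or the neural tube. A share of a library is relative: a gene can keep its share while other genes change theirs, and the choice of what each library is divided by decides which genes appear constant.

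All embryos were wild type at Hamburger and Hamilton stage 18, and all received a plasmid expressing Cas9 with the fluorescent protein Citrine from the CAG promoter, so the controls carried Cas9 too. Citrine-positive cells were sorted, so uncut cells that took up the plasmids can be among those measured. The sort was on Citrine and not on a marker of neural crest, so other cells that took up the plasmids can be present too. The sox3 group had pcU6:sox3_g1 and pcU6:sox3_g2 (2 libraries), the msx1 group pcU6:msx1 (3 libraries), the sox10 group pcU6:sox10_g1 and pcU6:sox10_g2 (3 libraries) and the tfap2b group pcU6:tfap2b_g1 and pcU6:tfap2b_g2 (3 libraries). The double group (dko in its titles) had both tfap2b guides and pU6:sox10_g1 (3 libraries), and the Cas9 control had no guide plasmid (2 libraries). Whether replicates are separate embryos or days is not stated in the labels, and a p-value here reflects the spread of the libraries at hand, possibly a technical one.

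Library totals ranged from 5721022 to 24929531 counts, and the lowest count of any steady gene in any library was 145. The files hold Ensembl IDs without names, and 0 of these matched the reference table used here, so neither the targeted genes nor markers of neural crest could be checked and no gene can be given a role. The 100 most abundant genes of each library took 15.5% ± 1.45 of its counts in the sox3 group (SD, n = 2), 14.0% ± 1.83 in the msx1 group, 19.5% ± 0.387 in the sox10 group, 17.1% ± 1.01 in the tfap2b group and 16.9% ± 0.325 in the double group (SD, n = 3 each), against 12.3% ± 0.468 in the control (SD, n = 2). This concentration moved with the groups, and its part in the levels below was not tested. It also moved with depth: in the msx1 group it was 15.9%, 13.7% and 12.3% at 5721022, 15395165 and 24929531 counts. The controls had 19355001 and 22142722 counts and the sox10 libraries 9112556 to 10263454, so depth and group cannot be fully told apart. In such bulk samples, fewer cells of a type and less RNA per cell cannot be told apart.

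The SD of log2 CPM of the steady genes ran from 0.112 to 0.246, with a median of 0.219. In the 3379 eligible genes not chosen the median was 0.513, and the 150 eligible genes at the other end had a median of 1.17. The highest and the lowest library of a steady gene differed by 1.28-fold to 2.25-fold, with a median of 1.71-fold, against a median of 3.27-fold in the genes not chosen. Counting alone gives a median SD of 0.0320 for the steady genes at these depths. Taking it off left a median of 0.215, so most of even this small spread was not counting error.

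**Figure D1:**
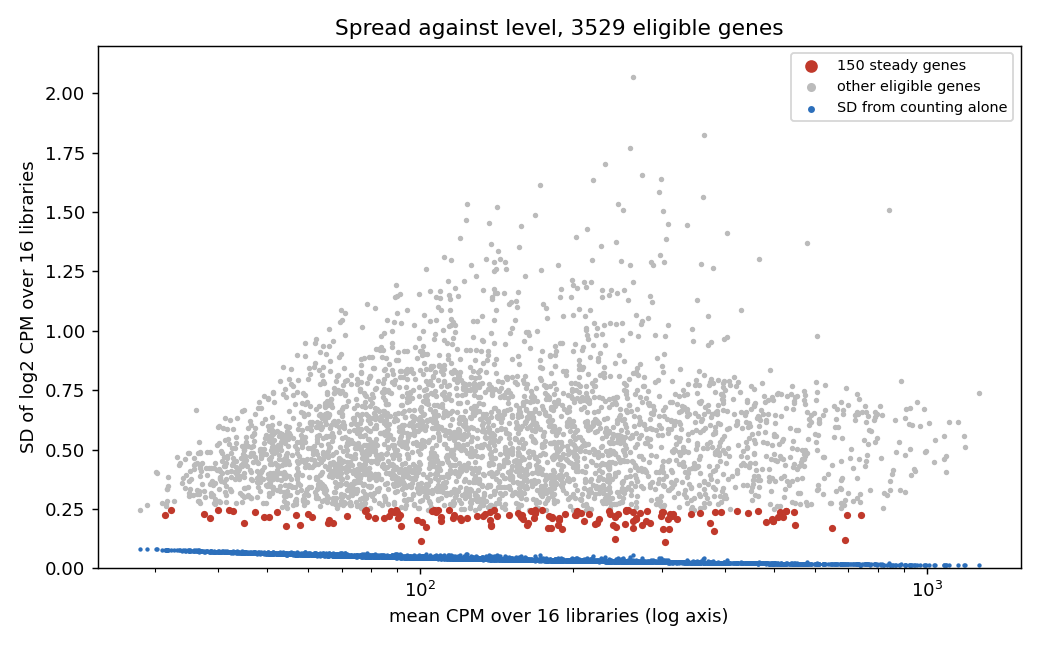
SD of log2 CPM over 16 libraries (vertical) against mean CPM (horizontal, log axis) for the 150 steady genes (red), the other eligible genes (grey) and the SD that counting alone gives each eligible gene (blue). The steady genes form the lower edge of the cloud, at SDs of 0.112 to 0.246, and each lies above its own counting error.

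The steadiest gene was ENSGALG00000008470 (galGal5 chromosome 7, 12026423 to 12034243, minus strand, 13 exons), with an SD of 0.112. It had 277 and 290.4 CPM in the sox3 libraries, 301, 289.6 and 297 in the msx1 libraries, 311, 313 and 292 in the sox10 libraries, 291, 312 and 344 in the tfap2b libraries and 294, 289 and 378 in the double libraries, against 300.5 and 284 in the control libraries. The third double library stood above the other 15, and every targeted group had at least 1 library within the control range.

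The second, ENSGALG00000040335 (chromosome 3, 33603675 to 33618964, minus strand, 16 exons), had the smallest spread once counting error was taken off, at 0.106. It had 101 and 99.8 CPM in the sox3 libraries, 87.2, 90.7 and 96.6 in the msx1 libraries, 98.4, 102 and 119.7 in the sox10 libraries, 105, 104 and 88.1 in the tfap2b libraries and 107, 108 and 98.3 in the double libraries, against 103 and 98.0 in the control libraries. The 3 msx1 libraries lay below both controls, both sox3 libraries lay between the controls, and the sox10, tfap2b and double libraries overlapped the control range.

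ENSGALG00000010961 (chromosome 2, 31211304 to 31319341, minus strand, 16 exons) was the most abundant of the 4 steadiest. It had 681 and 674 CPM in the sox3 libraries, 736, 725 and 741 in the msx1 libraries, 812, 693 and 593 in the sox10 libraries, 670.5, 613 and 631 in the tfap2b libraries and 656, 632 and 726 in the double libraries, against 713 and 717 in the control libraries. Its highest and its lowest library were both of the sox10 group, while its 2 controls lay close together.

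ENSGALG00000010957 (chromosome 8, 27576542 to 27587094, plus strand, 9 exons) had the smallest range of all the steady genes, 1.28-fold. It had 263 and 253 CPM in the sox3 libraries, 256, 248 and 259 in the msx1 libraries, 258, 259 and 207 in the sox10 libraries, 244, 209 and 219 in the tfap2b libraries and 248, 210.2 and 236 in the double libraries, against 236 and 264 in the control libraries. The lowest values came from the third sox10, the second tfap2b and the second double library.

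At the threshold, the last 2 genes inside were ENSGALG00000007491 (chromosome 10, 18080825 to 18090702, mean 174 CPM) and ENSGALG00000008230 (chromosome 6, 23575063 to 23596056, mean 42.0 CPM), with SDs of 0.24564 and 0.24565. The first 2 outside were ENSGALG00000010043 (chromosome 3, 27650119 to 27715036, mean 104 CPM, overlapping another gene) and ENSGALG00000001013 (chromosome 17, 10069935 to 10073726, mean 128 CPM), with SDs of 0.24577 and 0.24593. The boundary separates near equal values. Differences between groups made up 46.7% and 39.8% of the variation of the 2 inside, and 83.8% and 86.3% of that of the 2 outside. That contrast did not hold for the larger sets on each side. The median share was 49.8% in the steady genes and 53.1% in an equal number of genes next in SD (quartiles 36.3% and 74.5%).

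Over all the steady genes, differences between the 6 groups made up a median of 49.8% of the variation between libraries (quartiles 33.1% and 64.6%), against 79.8% in the eligible genes not chosen. These shares are not corrected for degrees of freedom, of which 5 of 15 lie between groups. A share of 5 in 15 would thus arise on average without any group difference, and the lower quartile of the steady genes was near it. The pooled SD within groups was 0.184 (median) for the steady genes and 0.278 for the genes not chosen. The steady genes thus had less spread both between and within groups, as a rule on total spread selects.

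The genes did not vary as 1 block, which describes genes chosen on these same values. Across the 16 libraries, which share depth and scaling, the median correlation between 2 steady genes was 0.0983, with 1224 of 11175 pairs above 0.5 and 412 below -0.5. The first principal component of the steady genes carried 23.3% of their variance, against 66.4% for the 3529 eligible genes. Genes of large spread weigh most in the latter and the rule left them out, so a lower share was in part built in. The scores of the steady genes' first component had the same sign in all sox3, msx1 and control libraries and in the third sox10 library, and the other sign in the remaining 8.

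Some libraries set the extremes of many steady genes. The third double library was the highest of the 16 for 30 genes, the first tfap2b library for 19 and the first sox10 library for 17. The third sox10 library was the lowest for 30 genes and the second tfap2b library for 24. The control libraries were the highest for 5 genes each and the lowest for 6 and 2. By group, the highest value fell in a sox3 library for 8 genes, an msx1 library for 18, a sox10 library for 36, a tfap2b library for 31 and a double library for 47, against 10 in a control library. The lowest fell in these groups for 16, 31, 51, 31 and 13 genes, against 8 in a control library. The sox3 and control groups have 2 libraries and the others 3, so these counts are not on equal terms.

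Together the steady genes took 3.12% ± 0.0465 of all counts in the sox3 group (SD, n = 2), 3.11% ± 0.0220 in the msx1 group, 3.22% ± 0.161 in the sox10 group, 3.35% ± 0.269 in the tfap2b group and 3.41% ± 0.0481 in the double group (SD, n = 3 each), against 3.14% ± 0.0136 in the control (SD, n = 2). The 3 double libraries, at 3.37% to 3.47%, all lay above the controls at 3.13% and 3.15%, and the sox3 and msx1 libraries lay at 3.08% to 3.15%. The sox10 libraries (3.04% to 3.33%) and the tfap2b libraries (3.04% to 3.53%) spanned the control range.

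On the CPM scale, the median difference of the steady genes from the control (difference of mean log2 CPM, targeted minus control) was -0.04 in the sox3 group, -0.02 in the msx1 group, -0.0012 in the sox10 group, 0.07 in the tfap2b group and 0.11 in the double group. In the sox10 group 75 of the 150 were above the control on average and 75 below. Differences of more than 1.5-fold were seen for 1 steady gene in the sox3 group, 0 in the msx1 group, 1 in the sox10 group, 1 in the tfap2b group and 2 in the double group. Of the 3529 eligible genes, 9.80%, 13.1%, 64.3%, 59.8% and 55.3% passed that fold in the same 5 groups.

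**Figure D2:**
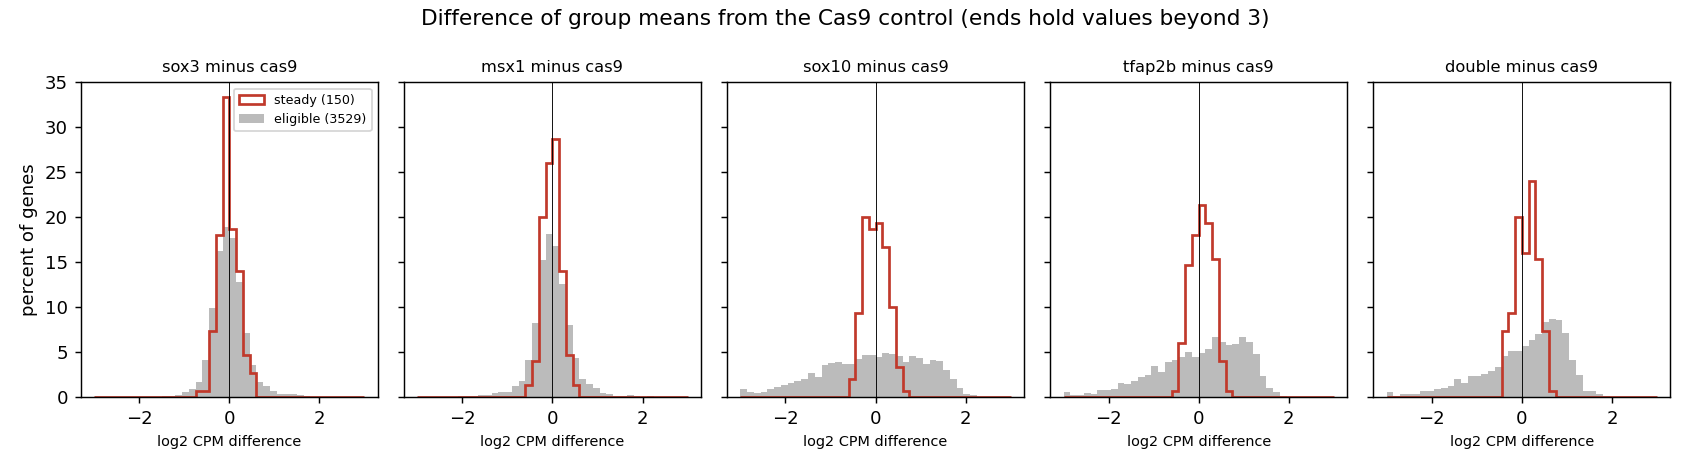
Difference of mean log2 CPM between each targeted group and the Cas9 control for the 150 steady genes (red outline) and the 3529 eligible genes (grey), as percent of genes, with values beyond 3 in the end bins. The steady genes lie within 0.69 of 0 in all 5 panels, by their choice, while the eligible genes spread more widely in the sox10, tfap2b and double groups than in the sox3 and msx1 groups.

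The largest difference above the control on this scale was that of ENSGALG00000032518 (chromosome 2, 129501286 to 129543306, minus strand, 4 exons, overlapping another gene and therefore uncertain). It had 394 and 408 CPM in the sox3 libraries, 422, 391 and 387 in the msx1 libraries, 459.8, 563 and 416 in the sox10 libraries, 430.2, 451 and 475 in the tfap2b libraries and 437, 440.3 and 500.4 in the double libraries, against 304 and 286 in the control libraries. All 14 targeted libraries lay above both controls, and the log2 difference from the control was 0.69 in the sox10 group and 0.44 in the sox3 and msx1 groups.

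ENSGALG00000020879 (chromosome 8, 11727627 to 11750700, minus strand, 13 exons) had its highest mean CPM in the double group. It had 102 and 106 CPM in the sox3 libraries, 129.9, 117 and 85.3 in the msx1 libraries, 102, 89.5 and 107 in the sox10 libraries, 92.4, 113 and 95.9 in the tfap2b libraries and 141, 121 and 150.3 in the double libraries, against 91.2 and 90.6 in the control libraries. The double libraries did not overlap the control, sox3, sox10 or tfap2b libraries, and their log2 difference from the control was 0.59. They overlapped the msx1 group, whose first library lay above the second double library. In the edgeR test described below, with TMM scaling, the fitted log2 fold change was 0.86 in the double group (adjusted p = 0.0108). It was 0.66 in the sox10 group (adjusted p = 0.0345) and 0.52 in the tfap2b group (adjusted p = 0.0982) by the same edgeR test. On the CPM scale these log2 differences were only 0.12 and 0.14, and the sox10 libraries lay on both sides of the controls. The TMM factors of these groups, at -0.52 and -0.36 from the control in log2, raise every gene in them relative to CPM. The gene was named for its difference from the control, so nothing is read from these p-values.

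The largest difference below the control was that of ENSGALG00000039118 (chromosome 5, 31240857 to 31409344, plus strand, 13 exons, overlapping another gene and uncertain). It had 154 and 170.4 CPM in the sox3 libraries, 201, 198 and 202 in the msx1 libraries, 197, 215 and 219.9 in the sox10 libraries, 191, 198 and 214 in the tfap2b libraries and 169.9, 196 and 289 in the double libraries, against 263 and 249 in the control libraries. Of the targeted libraries, the third double library alone reached the controls, and the log2 difference of the sox3 group was -0.66. In the edgeR test described below its adjusted p there was 0.349. This gene was also named for its difference from the control, so nothing is read from that p-value.

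ENSGALG00000001046 (chromosome 20, 341072 to 476413, plus strand, 14 exons) had its lowest mean CPM in the sox10 group, an order that rests on the column totals. It had 134 and 127 CPM in the sox3 libraries, 112, 118 and 143 in the msx1 libraries, 107, 125 and 108 in the sox10 libraries, 133, 114 and 135 in the tfap2b libraries and 127, 134 and 167 in the double libraries, against 185 and 155 in the control libraries. The third double library lay between the 2 controls and the other 13 targeted libraries below both. By edgeR the adjusted p in the sox10 group was 0.804. Nothing is read from it, as this gene too was named for its difference. The log2 difference in the sox10 group was -0.58. That difference was -0.06 with TMM and changed sign to 0.04 with DESeq2 size factors, and the fitted log2 fold changes with TMM were -0.37 in the sox3 group, -0.55 in the msx1 group and -0.06 in the sox10 group.

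**Figure D3:**
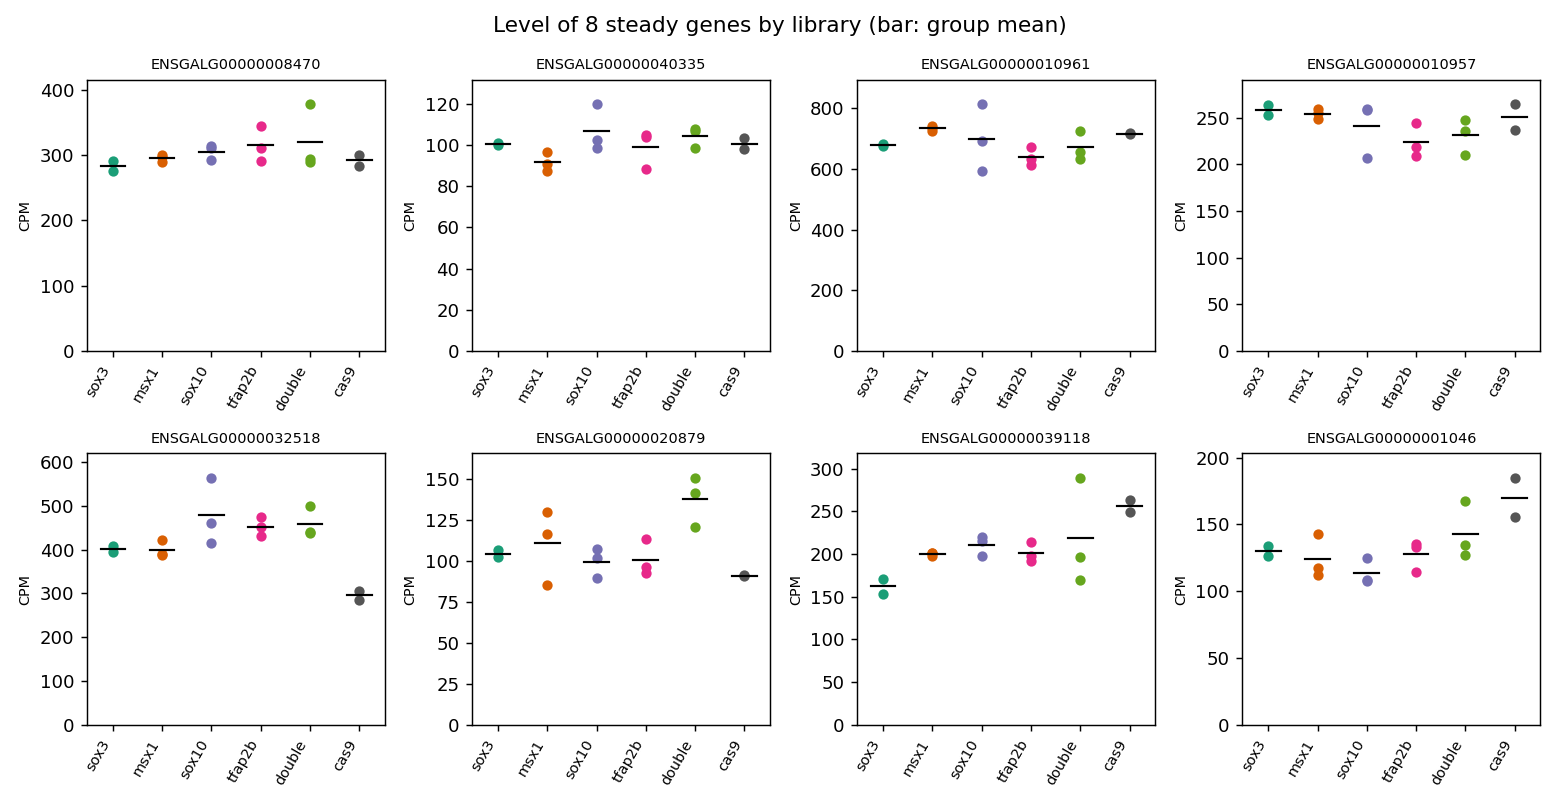
CPM of 8 steady genes in every library (points) with group means (bars), linear axes starting at 0, the Cas9 control at the right of each panel. The upper 4 genes are those of lowest SD (0.112 to 0.124), and the lower 4 have the largest differences from the control, from 0.69 above to 0.66 below on the log2 scale.

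The abundance of the steady genes ran from 31.4 CPM (ENSGALG00000036621, chromosome 4, 73988633 to 73999032, 14 exons) to 740.3 CPM (ENSGALG00000032930, chromosome 9, 15322922 to 15330360, 15 exons, overlapping another gene). Even the most abundant ranged from 569.6 CPM in the first msx1 library to 983 CPM in the first tfap2b library. Group means of that gene were 749 ± 3.86 CPM in the sox3 group (SD, n = 2), 640.3 ± 67.8 in the msx1 group, 796 ± 105 in the sox10 group, 839 ± 181 in the tfap2b group and 737 ± 119.7 in the double group (SD, n = 3 each), against 656 ± 27.4 in the control (SD, n = 2). Its groups overlapped, other than the sox3 and sox10 libraries, which lay above both controls.

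What is set out next is not what the rule ranked the genes on, and is given as counts and medians without a test. The floor of 20 CPM and the 100 abundant genes left out bounded the level of steady and eligible genes alike. The genes tested did not have these bounds. A difference in level from the genes tested is thus set in part by the rule, and whether other differences from them are was not tested. The median level of the steady genes was 179 CPM, against 131 CPM in the eligible genes, but the 150 genes of lowest SD over the 6 group means had a median of 117 CPM, below the eligible genes. With the eligible genes in 5 equal bins of mean CPM, 42 of the 150 came from each of the 2 upper bins, against 20 to 24 from each of the 3 lower bins. The median SD of all eligible genes did not fall with level, at 0.446 in the lowest bin and 0.520 in the highest. The floor of 20 CPM in every library also keeps out low genes of wide spread. The SDs of these bins are thus not on equal terms. Per kilobase of exon the median level was 74.2 CPM for the steady genes, 57.6 for the eligible genes and 8.21 for the 14081 genes tested in the fit described below. In 5 bins of level per kilobase, the bin below the top (74.7 to 145 CPM per kilobase) held 47 steady genes and the top bin 27.

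For the genes chosen on the column total, gene structure was near that of the eligible genes. With the TMM scaling described below, the genes chosen had medians of 3275 exonic bases and 13 exons. The median exonic length was 2205.5 bases in steady genes, 2220.0 in eligible genes and 1912 in the genes tested. The median number of exons was 10 in steady genes, 9 in eligible genes and 8 in the genes tested, and the median span on the chromosome was 14.1 kb, 13.3 kb and 12.3 kb for the same 3 sets. Each of 5 equal bins of the eligible genes by exonic length gave 27 to 33 steady genes. Only 1 steady gene had a single exon (0.667%), as had 0.595% of eligible genes and 4.03% of the genes tested.

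Steady genes lay on 27 of the 31 numbered chromosomes that held eligible genes. Chromosomes 1 to 5 held 65 of them (43.3%, against 50.2% of eligible genes), chromosomes 6 to 10 held 35 (23.3%, against 16.9%) and chromosomes 11 to 33, most of them the small microchromosomes of birds, held 50 (33.3%, where 1163 of the 3529 eligible genes lay there). Chromosomes 8 and 9 gave 12 of 139 and 9 of 102 eligible genes, shares of 8.63% and 8.82% where all chromosomes together gave 4.25%. Chromosome 10 gave 3 of 105.

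**Figure D4:**
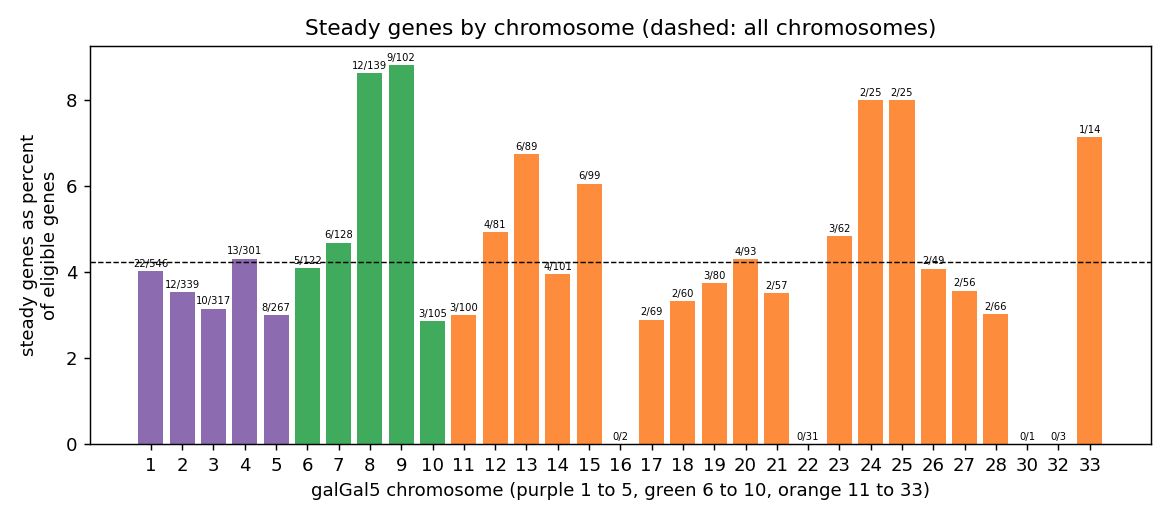
Steady genes as percent of the eligible genes of each numbered chromosome (galGal5), with the numbers of both above each bar and the share over all chromosomes, 4.25%, as a dashed line. Chromosomes 8 and 9 stand at 8.63% and 8.82%, and chromosomes with few eligible genes have shares that rest on 1 or 2 steady genes.

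The steady genes were scattered along the chromosomes. A single pair were next to each other, ENSGALG00000042839 (chromosome 10, 8687069 to 8718924) and ENSGALG00000017370 (8721261 to 8730500), both on the plus strand, and their log2 CPM did not move together over the 16 libraries (r = -0.128, shared depth and scaling). The median number of other genes starting within 100 kb was 7 around steady genes, and 6 around both eligible genes and genes tested. A divergent neighbour, a gene on the other strand starting within 1 kb and running away from it, was found for 31 steady genes (20.7%), for 23.1% of eligible genes and for 13.9% of the genes tested. The span of 28 steady genes (18.7%), introns included, overlapped another gene on either strand. Their counts are uncertain, because overlap of exons was not examined and the strand setting of the counting is not known.

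The constancy of these genes depended on what each library was divided by. The trimmed mean of M-values (TMM), which assumes that most genes do not differ between libraries, gave scaling factors of 1.11 and 1.16 in the sox3 libraries, 1.19 to 1.26 in the msx1 libraries, 0.759 to 0.839 in the sox10 libraries, 0.805 to 0.974 in the tfap2b libraries and 0.943 to 0.979 in the double libraries, against 1.12 and 1.17 in the control libraries. On the log2 scale the factors differed from those of the control by -0.01 in the sox3 group, 0.10 in the msx1 group, -0.52 in the sox10 group, -0.36 in the tfap2b group and -0.26 in the double group. A negative value raises every gene of that group by its size relative to CPM. On the TMM scale the steady genes stood at a median of 0.30 above their own mean in the sox10 libraries (mean of 3 libraries), 0.22 in the tfap2b libraries and 0.15 in the double libraries, and at -0.24 in the sox3 and -0.35 in the msx1 libraries, against -0.23 in the control libraries. Their median SD was 0.324 on that scale.

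**Figure D5:**
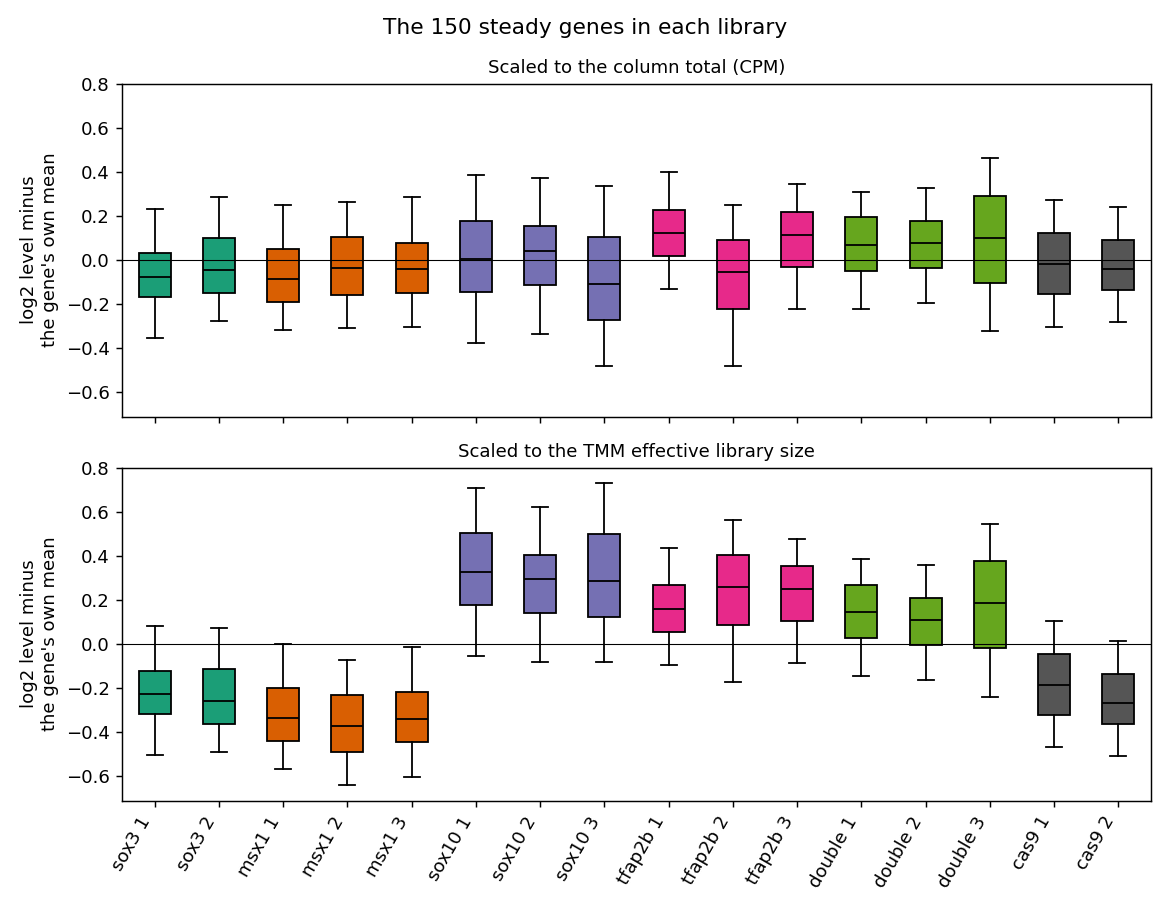
Level of the 150 steady genes in each library relative to each gene's own mean over the 16 libraries (log2), scaled to the column total (upper panel) and to the TMM effective library size (lower panel). Boxes run between the quartiles, lines give the median and whiskers the 5th to 95th percentile of genes; on the column total the library medians lie between -0.11 and 0.12, and on the TMM scale those of the sox10, tfap2b and double libraries lie above 0 and those of the sox3, msx1 and control libraries below.

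The same rule applied to TMM-scaled values chose 150 genes of which 32 (21.3% of each list) were among the steady genes, and DESeq2 size factors left 25 (16.7% of each list). All 25 were lower in the sox10 group than in the control on the CPM scale, with a median log2 difference of -0.30. The 118 steady genes that the TMM list did not hold had a median of 0.09 there. TMM raises every gene of the sox10 group relative to CPM. These values thus follow largely from the choice of genes, as do those of the TMM-chosen genes below. Of the 4 steadiest genes, ENSGALG00000010957 and ENSGALG00000010961 stayed in the TMM list, at ranks 36 and 60, whereas ENSGALG00000008470 and ENSGALG00000040335 were at ranks 305 and 361. The TMM-chosen genes themselves had a median log2 CPM difference of -0.51 in the sox10 group, -0.36 in the tfap2b group and -0.23 in the double group, so most of the genes chosen on one scale were not among those chosen on the other.

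A test across all 14081 genes passing the expression filter (edgeR's quasi-likelihood test on counts with TMM scaling and Benjamini-Hochberg adjustment) was run for each targeted group against the control, and the steady genes are counted in it without reading anything from the counts, since the rule used these differences. All 150 were among the genes tested. At an adjusted p under 0.05, 0 steady genes passed in the sox3 group. Of tested genes 0.646% did, 0.575% as higher and 0.071% as lower. By DESeq2, 0 steady genes passed there at the same threshold. In the msx1 group 0 passed by edgeR and 0 by DESeq2. Of tested genes 2.83% passed by edgeR, 1.07% as higher and 1.76% as lower. Of all genes in the DESeq2 fit, 2.00% passed in the sox3 group and 5.92% in the msx1 group. Fitted with the control alone, the sox3 group had 27 steady genes passing, where 32.3% of the genes tested passed, and the msx1 group 2, where 16.5% passed.

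In the sox10 group 80 steady genes passed as higher and 0 as lower, where 46.4% of tested genes passed, 19.8% as higher and 26.6% as lower. Their median fitted log2 fold change was 0.53, against -0.31 for all tested genes. In the tfap2b group 55 passed as higher and 0 as lower, where 38.6% of tested genes passed (17.7% higher, 20.9% lower), with a median of 0.45 against -0.18. In the double group 43 passed as higher and 0 as lower, where 37.2% of tested genes passed (17.1% higher, 20.2% lower), with a median of 0.38 against -0.09. The 3529 eligible genes, which share the bounds on level with the steady genes, had medians of 0.60, 0.59 and 0.55 in these 3 groups. Of them, 1687, 1611 and 1546 passed as higher and 535, 452 and 457 as lower. Without control replicate 1, 41, 19 and 10 steady genes passed in the sox10, tfap2b and double groups, where 31.5%, 24% and 21.9% of all genes tested passed. Without control replicate 2 the counts were 33, 13 and 9, where 31.3%, 23.3% and 20.8% of all genes tested passed. These directions rest on the scaling: with column totals as library sizes, 7 were higher and 3 lower in the sox10 group (49.6% of tested genes passing), 6 and 1 in the tfap2b group (39.4%) and 9 and 1 in the double group (36.8%), with 0 in the sox3 group (0.71%) and 0 in the msx1 group (2.78%). The median of the steady genes was then 0.01, 0.09 and 0.12 in these 3 groups, against -0.83, -0.52 and -0.35 for all genes tested. Of all genes tested, 1892 were then called higher and 5098 lower in the sox10 group, 1794 and 3751 in the tfap2b group and 1820 and 3364 in the double group, where TMM gave 2795 and 3743, 2488 and 2942, and 2402 and 2841.

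Among single genes, ENSGALG00000032518 had the smallest adjusted p of the steady genes in the sox10, tfap2b and double groups, at 2.92e-05, 0.000247 and 0.000632 (edgeR's quasi-likelihood test), with fitted log2 fold changes of 1.22 (SE 0.17), 0.98 (SE 0.17) and 0.90 (SE 0.16). Its adjusted p was 0.438 in the sox3 group and 0.363 in the msx1 group. This gene was picked for its difference from the control in these same libraries, so nothing is read from its p-values. On the CPM scale its log2 difference was 0.69 in the sox10 group. The TMM factor there, at -0.52 from the control in log2, adds to it. The steadiest gene, ENSGALG00000008470, had adjusted p-values of 0.0109 in the sox10 group and 0.0378 in the tfap2b group by the same edgeR test, with fitted log2 fold changes of 0.59 (SE 0.17) and 0.48 (SE 0.17). Its mean on the CPM scale was 306 ± 11.4 in the sox10 group and 316 ± 26.7 in the tfap2b group (SD, n = 3 each), against 292 ± 11.6 in the control (SD, n = 2).

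Counts without overlap between groups are given beside those of all tested genes, and nothing is read from them. In CPM, without overlap between the targeted and the control libraries, 41 steady genes were higher and 50 lower in the sox3 group (of all tested genes, 27.2% and 39.1%). In the msx1 group 23 were higher and 33 lower (25.5% and 23.6% of tested genes), and in the sox10 group 30 and 25 (17.6% and 50.4%). In the tfap2b group 48 were higher and 18 lower (22.2% and 47.0% of tested genes), and in the double group 57 and 15 (25.4% and 45.1%). The 5 comparisons share the 2 control libraries, so a control value that is high or low for a gene counts in each of them.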

How the data were processed

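RNA was sequenced in 16 libraries made with a low-input SMART-Seq v4 kit and Nextera XT, as paired reads of 40 bases, from RNA with an integrity number above 6, per the labels' protocols. Those protocols describe sorted cells of dissociated vagal regions and also name dorsal neural tubes as the source of RNA. The deposited values are whole-number read counts per gene, not normalized, made with STAR 2.4.2a and featureCounts of Subread 1.4.5 on galGal5, per the submitters' processing notes, which also name DESeq2. The annotation version and strand setting are not given in the sources used here. The table's exonic lengths are used as deposited.

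CPM was computed as count divided by column total. Membership, spread and structure follow the rule in the text and have no test. The fit was edgeR 4.0.16 (limma 3.58.1, R 4.3.3) with all libraries, group as the sole factor, TMM, the default filter and robust estimation, at a threshold of 0.05, and standard errors are the log2 fold change over the square root of F. DESeq2 1.42.0 was an alternative. The code of the selection and of the fit was run on simulated data. The simulated steady genes were set far from the rest, and few genes were changed in the simulated fit. These runs thus do not test the choice between near equal values at the threshold, or TMM where many genes differ. Libraries of a group differed by more than counting noise and were kept apart, although replicates 1 and 2 of the sox3, msx1 and control groups were closer to each other (mean chi-square per gene under 15) than other pairs. Named genes are the 4 of lowest SD, 2 on each side of the threshold, those of highest and lowest mean CPM and of largest and smallest corrected spread, and the 2 largest differences from the control in each direction. ENSGALG00000006723, of largest corrected spread, had an SD of 0.246. The adjacent pair was named after its values were seen. Genes, lists and tests were chosen with earlier results of these data known.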

Additional observations from a re-analysis of the deposited data

How the results depend on the processing

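Membership was sensitive to scaling and to the measure of spread. Of the 150 steady genes, 32 were chosen with TMM and 25 with DESeq2 size factors, 57 by the median absolute deviation, 78 by the SD over the 6 group means, 21 by the pooled SD within groups (median SD of those chosen 0.404) and 75 when only 75 genes were kept, the last by construction. The median level of the genes chosen was 117 CPM by group means, below the 131 CPM of the eligible genes, and 320.4 CPM by the SD within groups. A floor of 10 CPM or none, no abundant genes left out, the range, counting variance taken off and close pairs summed shared 119 to 148 with the list. By construction, a list of 300 genes held all 150, and a floor of 50 CPM kept each of the 133 steady genes that passed it. Leaving out 1 library in turn, 106 to 140 of the 150 were shared (the fewest without sox10 replicate 3), and 94 stayed without any 1 of the 16. In an alternative added after seeing the data, 82 were shared without double replicate 3, sox10 replicate 3 and tfap2b replicate 2. Median exonic length, exon number and the counts on chromosomes 6 to 10 and 11 to 33 (per 150 genes) stayed within 1.5 times of the values reported in every alternative run. Within that bound, structure moved with scaling. The median exonic length was 2206 bases on the column total, 3275 with TMM and 3062 with DESeq2 size factors. The median number of exons was 10, 13 and 13 on the same 3 scales.

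Counts of steady genes passing the fit moved as follows. With the 2 groups fitted alone, 27, 2, 49, 51 and 61 passed in the sox3, msx1, sox10, tfap2b and double groups. There 32.3%, 16.5%, 33.6%, 42.95% and 49.3% of all genes tested passed. By DESeq2, 107, 73 and 56 passed in the sox10, tfap2b and double groups, where 40.9%, 35.4% and 34.1% of all genes in that fit passed. DESeq2's way of scaling (RLE) used in edgeR gave 97, 62 and 46, where 46.2%, 38.6% and 37.2% of all genes tested passed. With column totals as library sizes, also added after seeing the data, 10, 7 and 10 passed in the sox10, tfap2b and double groups. Of all genes tested, 49.6%, 39.4% and 36.8% passed there. Without 1 library in turn, the ranges were 0 to 0 in sox3 and 0 to 0 in msx1, 33 to 79 in sox10, 13 to 54 in tfap2b and 9 to 51 in double, the lowest without control replicate 1 or 2. Without a control library 1 control remains, and a smaller share of all genes tested passed in those fits too. In the sox3 fits, which all leave 1 library in a group, few of all genes tested passed. Without 1 targeted library, 0.895% to 2.91% of all genes tested passed in msx1. The shares were 46.6% to 47.9% in sox10, 32.8% to 36.7% in tfap2b and 31.0% to 34.2% in double. The cause was not tested. Over all genes, DESeq2 called 356 in the sox3 group and 1053 in the msx1 group, where edgeR called 91 and 399. The sox10 difference of ENSGALG00000001046 changed sign to 0.0396 with DESeq2 size factors (-0.06 with TMM). Of 36 same-numbered pairs of libraries, 2 had a correlation of deviations from group means above 0.1 (median 0.00666). Deviations from means of 2 or 3 libraries are tied to each other, so this check cannot exclude a pairing. With the replicate block 0, 0, 71, 45 and 35 steady genes passed in the sox3, msx1, sox10, tfap2b and double groups, where 0.561%, 2.57%, 44.1%, 36.2% and 34.65% of all genes tested passed. With 2 or 3 libraries a group, small differences can be missed, and no limit of detection was computed.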
